A study of Mus musculus with 12 samples.

Results

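The transcripts described here encode the core of the splicing regulators: the SR proteins, the heterogeneous nuclear ribonucleoproteins (hnRNPs), and the paraspeckle partners Sfpq and Nono. They were measured in perivascular macrophages of the mouse brain, the macrophages that lie along the brain's blood vessels. Members were chosen by gene symbol, as every gene named Srsf with a number or beginning with Hnrnp, plus Sfpq and Nono. The rule found 34 of the 17358 genes in the table, of which 11 were SR genes, 21 hnRNP genes and 2 Sfpq and Nono. The set was picked because Sfpq was higher in aged mice, so the differences between aged and young libraries below are a description of the members and carry no test. SMART-seq2, which copies whole polyadenylated transcripts from very little RNA, gave 5 libraries of aged C57BL mice (18 months) and 7 of young adults (3 months). Neither group is described as treated or genetically altered, and both come from brain. The series text calls the libraries biological replicates without saying how many animals or cells each holds, so errors measure the spread between these libraries.

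SR proteins carry an RNA recognition motif and a domain rich in arginine and serine, bind exonic enhancers and help recruit the spliceosome. Many hnRNPs bind silencers or package nascent transcripts, and several oppose SR proteins at the same exon. Sfpq and Nono belong to a small family of nuclear proteins that dimerise with each other, build paraspeckles around the long noncoding RNA Neat1 and act in transcription, splicing and the retention of RNA in the nucleus. Many SR and hnRNP genes limit their own output through exons that send the transcript to decay, which gene-level counts do not resolve.

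Library totals ranged from 23214836 to 30628787 estimated counts, and the members took between 0.688% and 1.501% of them. Aged libraries averaged 26222251 ± 2872546 counts (SD, n = 5) and young ones 28766071 ± 1751587 (SD, n = 7; exact two-sided permutation p = 0.096, and 0.024 without aged library 2). Perivascular macrophage markers summed to between 11565 and 15100 CPM (counts scaled to library size) in aged and between 12384 and 17626 in young libraries, with all 10 detected. Pan-macrophage markers summed to between 4849 and 7752 CPM in aged and 6435 and 7260 in young libraries. Their sums in aged libraries 1, 3 and 4 (6196, 4849 and 5509) were below every young library, and those in aged libraries 2 and 5 (7752 and 6484) were not. Whether this bears on the results below was not tested. Microglia markers, some of which macrophages share, summed to between 3021 and 4318 CPM in aged and 3511 and 5788 in young libraries. Erythroid markers reached 251.6, fibroblast markers 185.5, astrocyte markers 117.8, oligodendrocyte markers 94.1 and neuron markers 80.0 CPM at most. Neutrophil markers reached 35.2, lymphocyte markers 27.1, endothelial markers 25.8 and mural cell markers 16.2 CPM. The highest astrocyte and neuron sums were in aged library 3 and the highest oligodendrocyte sum in young library 4. All 8 choroid plexus epithelium markers had a count, and their sum separated the groups, with 225.9 to 984.8 CPM in aged and 62.9 to 147.6 CPM in young libraries; its part in the results below was not tested. Aged libraries 1, 3 and 4 stood apart on the first principal component (scores from -146.3 to -129.4, the other 9 libraries from -24.8 to 93.3), and fold changes without them are given for the members described by library. In such samples fewer cells of a type and less RNA per cell cannot be told apart.

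Sfpq encodes an RNA- and DNA-binding protein that scaffolds paraspeckles and binds long introns. Its level, as CPM normalised for library composition by the trimmed mean of M-values (TMM), was 918.4, 378.9, 1930, 1754 and 874.9 in aged libraries 1 to 5. The 7 young libraries lay between 336.4 and 704.6, with a median of 416.0. Aged libraries 1, 3, 4 and 5 were above every young library, whereas aged library 2 sat inside the young range, so the groups overlapped. The means were 1171 ± 650.8 in aged and 438.2 ± 126.7 in young libraries (SD, n = 5 and n = 7). The log2 fold change was 1.42 ± 0.32 (SE), a 2.67-fold difference. It lay between 1.13 and 1.65 when any 1 library was left out, but was 0.50 without aged libraries 1, 3 and 4. In the GENCODE M21 annotation of GRCm38 the gene (Entrez 71514) spans 127021324 to 127037013 of chromosome 4, plus strand. The processed transcript Gm12940 overlaps it on the same strand.

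Nono, the dimer partner of Sfpq, showed another pattern. Its normalised CPM was 147.6, 25.6, 6.36, 23.3 and 108.4 in aged libraries 1 to 5, against a young range from 42.7 to 118.5 with a median of 84.4. Aged libraries 2, 3 and 4 were below every young library and aged library 1 was above them all. The log2 fold change was -0.40 ± 0.59 (SE), negative on leaving out any 1 library (from -1.03 to -0.13), and -0.32 without aged libraries 1, 3 and 4. In deposited FPKM, which divide by transcript length, Sfpq was 106.5 times as abundant as Nono in aged library 3, 28.5 times in aged library 4 and 5.44 times in aged library 2. The ratios of 2.07 and 2.7 in aged libraries 1 and 5 were inside the young range from 1.1 to 3.49. The Nono gene (Entrez 53610) spans chromosome X from 101429318 to 101448591. The family's further member Pspc1, also a paraspeckle protein, averaged 19.8 ± 29.2 normalised CPM (aged) and 24.3 ± 22.5 (young; SD). Its log2 fold change was -0.30 ± 1.21 (SE) and lay between -1.71 without aged library 4 and 0.26 without young library 4 (-2.86 without aged libraries 1, 3 and 4).

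**Figure D1:**
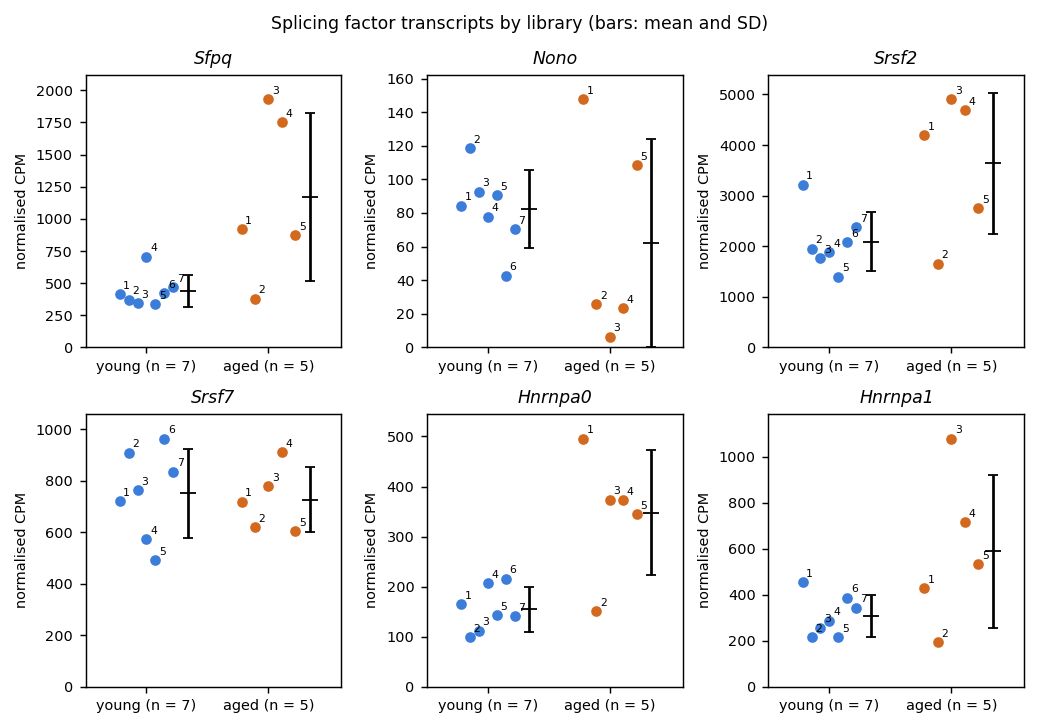
Normalised CPM (vertical axis, from 0) of Sfpq, Nono, Srsf2, Srsf7, Hnrnpa0 and Hnrnpa1 in each library, numbered by replicate, with young libraries on the left and aged ones on the right of each panel; bars give mean and SD. Aged library 2 stays inside or below the young range in all 6 panels, and Nono is lowest in aged library 3, where Sfpq is highest.

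The libraries with the highest Sfpq were those with the lowest totals. The 5 libraries at the top of the Sfpq order (aged 3, 4, 1 and 5 and young 4) were also the 5 with the fewest counts. Over the 12 libraries, log2 Sfpq and library total had a Pearson r of -0.87 and a Spearman rho of -0.69, given as a description because Sfpq was the gene the set was picked for and the relation was examined after its values were seen. Without aged libraries 3 and 4, the farthest from the median total, r was -0.65 and rho -0.45. Within the 7 young libraries r was -0.43 and rho -0.04. For the number of genes detected, r was 0.13 and rho -0.08 over the 12 libraries. The log2 library total as a covariate was an alternative added after seeing the data. With it, the log2 fold change was 0.57 for Sfpq and -0.06 for Nono. In that fit 16 members were positive and 16 negative, with a median of -0.0.

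**Figure D2:**
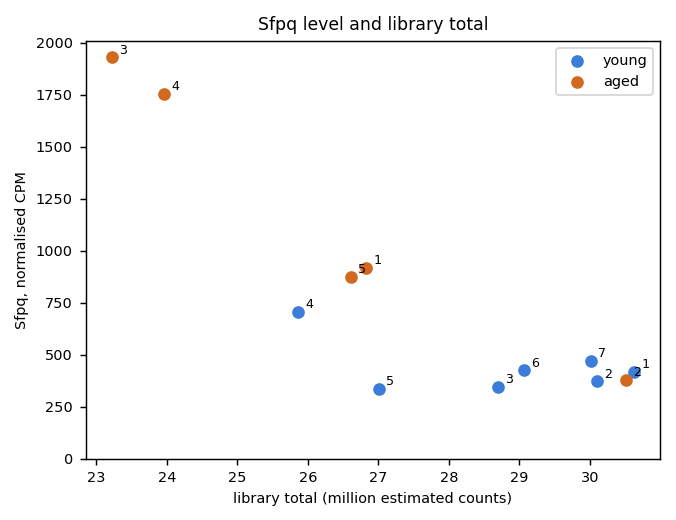
Sfpq in normalised CPM (vertical axis, from 0) against the library total in estimated counts (horizontal axis, in units of 1e6), 1 point a library, numbered by replicate and coloured by age group. Aged libraries 3 and 4 combine the smallest totals with the highest Sfpq, at 1930 and 1754, and aged library 2 lies among the young libraries.

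Promoters are shown for Sfpq and for 3 of the 5 members most like it across libraries, marked for the CCAAT box, the pentamer bound by the trimeric factor NF-Y. Each sequence is the 250 bases upstream of the RefSeq gene start in GRCm38.p6, read 5′ to 3′ on the gene's strand, with CCAAT or its reverse complement ATTGG in capitals. The windows are chr4:127021051-127021300 on the plus strand for Sfpq, chr7:25754760-25755009 on the minus strand for Hnrnpul1, chr15:103240147-103240396 on the plus strand for Hnrnpa1 and chr13:58128557-58128806 on the minus strand for Hnrnpa0. None of the 4 windows overlaps a GENCODE exon.
Sfpq: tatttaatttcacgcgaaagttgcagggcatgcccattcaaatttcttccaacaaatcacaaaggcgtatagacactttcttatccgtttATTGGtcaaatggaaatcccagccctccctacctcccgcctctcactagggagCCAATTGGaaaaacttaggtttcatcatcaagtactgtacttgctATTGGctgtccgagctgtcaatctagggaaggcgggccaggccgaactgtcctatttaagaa
Hnrnpul1: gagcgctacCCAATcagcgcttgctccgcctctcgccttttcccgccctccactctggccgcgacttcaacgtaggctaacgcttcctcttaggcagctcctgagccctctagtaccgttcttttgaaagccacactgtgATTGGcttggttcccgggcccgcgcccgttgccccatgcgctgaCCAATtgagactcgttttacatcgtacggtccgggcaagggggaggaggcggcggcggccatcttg
Hnrnpa1: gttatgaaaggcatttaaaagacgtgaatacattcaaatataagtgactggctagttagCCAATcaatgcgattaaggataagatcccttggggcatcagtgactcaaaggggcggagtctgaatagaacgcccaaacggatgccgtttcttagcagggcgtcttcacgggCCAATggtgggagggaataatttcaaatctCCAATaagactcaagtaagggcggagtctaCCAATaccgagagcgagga
Hnrnpa0: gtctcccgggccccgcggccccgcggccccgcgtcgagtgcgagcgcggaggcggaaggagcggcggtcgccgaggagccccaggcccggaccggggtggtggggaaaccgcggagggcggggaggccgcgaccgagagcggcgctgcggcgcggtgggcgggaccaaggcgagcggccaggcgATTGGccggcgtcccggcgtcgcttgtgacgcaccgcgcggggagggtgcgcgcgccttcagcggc

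The Sfpq window held 4 matches, 2 of which overlap in a CCAAT that runs into an ATTGG, the Hnrnpa1 window 4, the Hnrnpul1 window 3 and the Hnrnpa0 window 1. The windows of Srsf2 and Hnrnpa2b1, also among those 5 members, held 1 match each, and that of Hnrnpc, which resembled Sfpq less (Spearman rho 0.38), held 4. The RefSeq table gave 44 start sites for 32 of the 34 members; Hnrnpul2 and Hnrnpll were without an entry. At least 3 matches were present at 8 of the 44 sites, those of Hnrnpa1, Hnrnpab, Hnrnpc, Hnrnph2, Hnrnpl, Hnrnpr, Hnrnpul1 and Sfpq, compared with 2.79% of the 32851 windows of the whole table. At least 1 match was present at 52.3% of member sites and 33.8% of all. None of the SR genes was among those with 3 or more. The GC box (GGGCGG, either strand) was present at 75.0% of member sites and 32.7% of all, and the ETS core (CCGGAA, either strand) at 34.1% against 12%. The TATA box (TATAAA, either strand) was present at 9.1% against 12.4%, the YY1 core (CCATNTT, either strand) at 6.8% against 12.4% and the cAMP response element (TGACGTCA) at 0 of 44 against 1.5%. Member windows were richer in G and C (median 66.6%, against 52.4%), and Sfpq, at 45.2%, was the lowest of them. The windows of the whole table were not matched to the members by expression or by G and C content. Whether the member shares differ from those of other expressed genes was not tested. Sites of 1 gene overlap and share sequence, and a match is not evidence of binding.

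Levels between genes were compared per length, on the deposited FPKM. The most abundant member was Srsf2, also called SC35, a marker of nuclear speckles, at 1139 ± 393 FPKM (SD, n = 12 here and for the levels that follow). It was followed by Srsf5 at 476.5 ± 108.7 FPKM and by Hnrnph1, which binds G-rich tracts, at 380.2 ± 136.9. Srsf7, an SR protein with a zinc knuckle, was at 282.4 ± 45.7 FPKM and Hnrnpk, which binds C-rich RNA, at 247.2 ± 44.5. Hnrnpa1 and Hnrnpa2b1, founding members of the A/B class, were at 239.6 ± 119.4 and 191.2 ± 69.0 FPKM. From Srsf5 down to Hnrnpa2b1, neighbours in this order differed by less than the larger of their SDs. Sfpq ranked 10th of 34 at 105.5 ± 68.9 FPKM and Nono was at 31.4 ± 17.9. At the low end Srsf4 was at 3.24 ± 4.41 FPKM and Hnrnpul2 at 3.06 ± 2.64. Srsf12, had 67 counts in young library 2, 3 in young library 6 and 0 in the other 10. The pseudogene Hnrnpa1l2-ps2 had 1 count in all. These last 2 members did not pass the filter on low counts, which left 32.

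**Figure D3:**
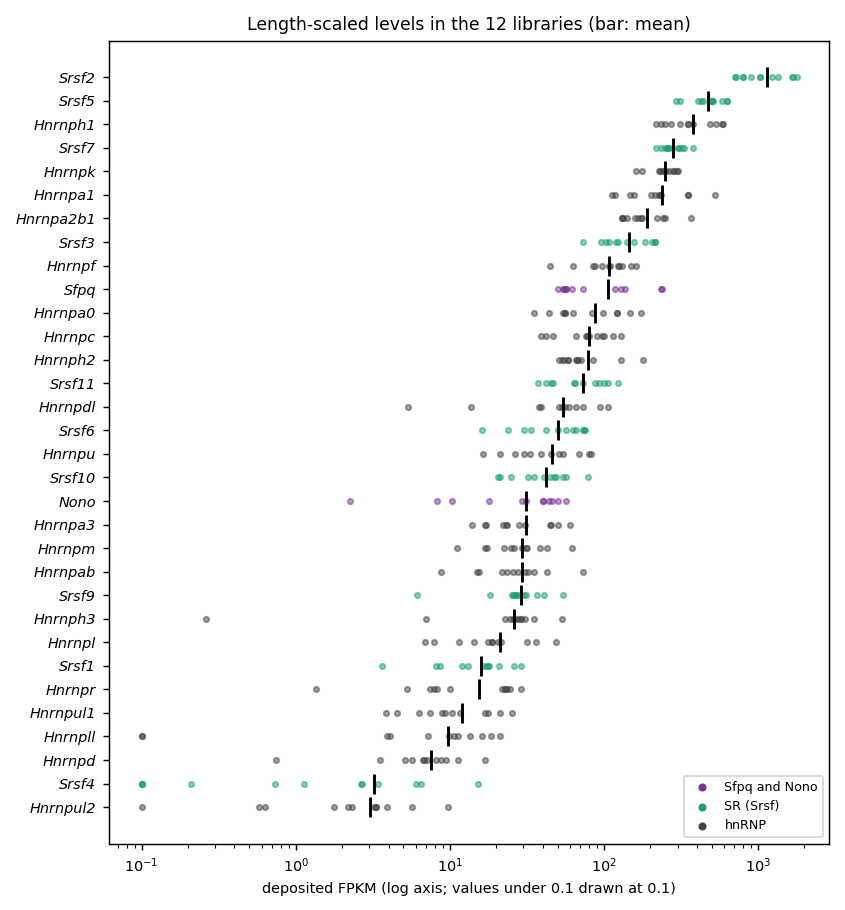
Deposited FPKM (horizontal log axis) of the 32 members that passed the filter, 1 point per library (values under 0.1 drawn at 0.1), with the mean over the 12 libraries as a bar and colours for the families. Srsf2 leads at a mean of 1139 FPKM, and Nono reaches down to 2.24 FPKM in aged library 3.

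Transcript length enters these levels, and for some members it was not fixed. The length implied by counts, FPKM and library total was between 6477 and 7258 bases for Sfpq, beyond the longest Sfpq transcript of GENCODE M21 (3465 bases), which was not the authors' annotation as far as the sources used here tell. The per-length level of Sfpq therefore depends on a transcript model that is not given. The same holds for Srsf2 (2256 to 2453 bases, longest GENCODE transcript 1899) and Srsf7 (2560 to 2624, longest 2403). It also holds for Hnrnpul2 (5661 to 5695, longest 5118). Hnrnpu, the scaffold attachment factor, had the widest range, from 3624 to 7451 bases, with the top value in aged library 3 and the other 11 libraries at 5458 or less. Hnrnpd, which binds AU-rich elements, ranged from 6630 to 8174 bases, highest in aged library 2. By contrast Nono (2392 to 2450 bases), Srsf3 (2514 to 2570) and Hnrnpa0 (2607 to 2664) each had a highest-to-lowest ratio of 1.02. Implied lengths move when reads are assigned to isoforms of other lengths, and the table gives no isoform counts.

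Of the 32 members that passed the filter, 24 had a positive and 8 a negative log2 fold change. The median was 0.32 (SR genes 0.32, hnRNP genes 0.42), beside -0.01 over all 9550 genes tested, of which 4724 were positive. The edgeR quasi-likelihood test called none of the members at a Benjamini-Hochberg adjusted p under 0.05, and 0.0105% of all genes, that is 1. At an unadjusted p under 0.05 there were 8 members, all higher in aged libraries, where 3.85% of all genes were called higher and 2.12% lower. DESeq2 called 2 members as higher, Sfpq and Hnrnpa0 (1.27% of all genes called), and edgeR with legacy=FALSE called Sfpq (0.398% of all genes). Without aged library 2, which held the lowest aged value of both genes, Sfpq and Hnrnpa0 were called by edgeR (0.755% of all genes). Since the set was picked in this contrast, nothing is read from any of these calls and shares. In no member did the aged and young libraries separate, whereas 0.325% of all genes separated as higher and 0.272% as lower in aged libraries. Without aged libraries 1, 3 and 4 the median of the members was 0.12 and that of all genes -0.06, with 20 positive and 12 negative members.

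**Figure D4:**
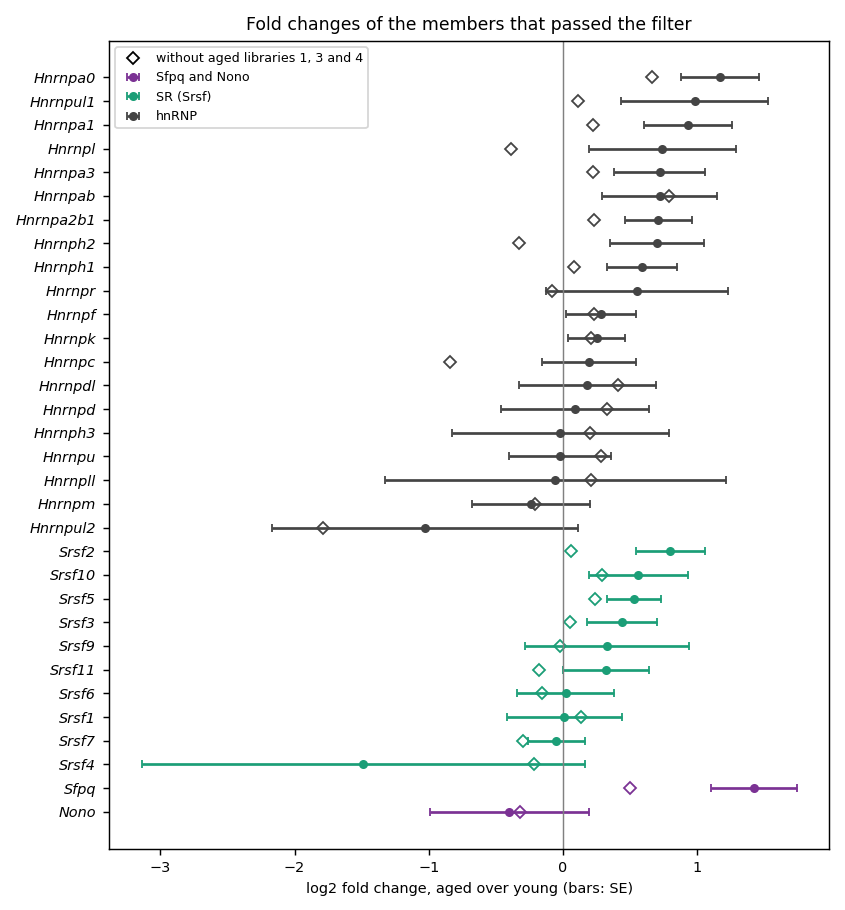
Log2 fold changes, aged over young, of the 32 members that passed the filter (filled points, bars SE), ordered within families, with open diamonds for the fit without aged libraries 1, 3 and 4. Sfpq (1.42) and Hnrnpa0 (1.17) lie farthest right, and most diamonds of the higher members are nearer to 0. The signs of Srsf1 and Srsf6, both near 0, turn under other scalings. With library totals alone that of Hnrnpd turns (-0.08) and Hnrnpc is at 0.0.

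Among the SR genes, Srsf2 had the highest fold change. Its normalised CPM was 4193, 1653, 4904, 4693 and 2749 in aged libraries 1 to 5, and 1400 to 3216 with a median of 1950 in young ones. Aged libraries 1, 3 and 4 were above every young library, and aged library 2 was below the young median. The log2 fold change was 0.80 ± 0.26 (SE), and 0.06 without these 3 libraries. Srsf2 (chromosome 11, 116849901 to 116853094) overlaps Mfsd11 and Mettl23 on the opposite strand, and this unstranded method cannot tell their reads apart. Srsf5, an SR protein that responds to insulin and growth signals, was at 800.2, 760.3, 1095, 1009 and 665.2 in aged libraries 1 to 5, against 452.2 to 750.9 in young ones (median 617.2). All 5 aged values were above the young median and 4 above every young library, with a log2 fold change of 0.53 ± 0.20 (SE), and 0.24 without aged libraries 1, 3 and 4. For Srsf10, which represses splicing when dephosphorylated, aged values were 72.9, 145.6, 283.8, 191.4 and 128.6 and young ones 55.7 to 178.9 (median 103.3; log2 fold change 0.56 ± 0.37 SE, 0.29 without those 3 libraries). Only aged libraries 3 and 4 exceeded the young range.

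The other SR genes lay lower in the order of fold changes. For Srsf7 the aged values were 717.4, 618.5, 778.3, 910.7 and 604.6 normalised CPM, and young libraries spanned 490.5 to 962.7 (median 763.0), every aged value inside the young range (log2 fold change -0.05 ± 0.21 SE, and -0.30 without aged libraries 1, 3 and 4). Srsf1, the prototype of the family, was at 21.0, 48.4, 102.0, 109.4 and 133.2 in aged and 46.4 to 111.3 in young libraries (median 84.1), with a log2 fold change of 0.01 ± 0.43 (SE), and 0.13 without those 3 libraries. Aged library 1 had the lowest and aged library 5 the highest Srsf1 of all. Srsf4 was at 0.201, 13.6, 0.150, 0.527 and 2.21 in aged libraries and between 0 and 28.8 (median 6.39) in young ones, each group spread over more than its mean. Its log2 fold change of -1.49 ± 1.65 (SE) was -3.59 without aged library 2 and -0.22 without aged libraries 1, 3 and 4. Srsf3, the smallest SR protein, was at 339.5, 190.4, 552.3, 606.4 and 482.5 in aged libraries, with aged libraries 3, 4 and 5 above every young library (238 to 434.2, median 306.8). Its log2 fold change was 0.44 ± 0.26 (SE), and 0.05 without aged libraries 1, 3 and 4. Srsf6, Srsf9 and Srsf11 had log2 fold changes of 0.02, 0.33 and 0.32, and -0.16, -0.02 and -0.18 without those 3 libraries.

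In the hnRNP family, Hnrnpa0 came closest to separating the groups. This A/B-class protein binds AU-rich elements of cytokine mRNAs in macrophages. Its normalised CPM was 495.7, 150.6, 374.0, 373.0 and 344.4 in aged libraries 1 to 5, against 98.9 to 216.0 in young ones, with a median of 142.6. Every aged library was above the young median and 4 of 5 above all young libraries. The log2 fold change was 1.17 ± 0.29 (SE), and 0.66 without aged libraries 1, 3 and 4. Hnrnpa1, which antagonises Srsf1 at splice sites, was at 427.8, 193.6, 1078, 714.7 and 531.5 in aged and 214.4 to 453.0 in young libraries (median 287.0). Aged libraries 3, 4 and 5 exceeded the young range and aged library 2 was the lowest of all 12. Its log2 fold change was 0.93 ± 0.33 (SE), and 0.22 without aged libraries 1, 3 and 4. Hnrnpa1 (chromosome 15, 103240432 to 103246692) has near-identical pseudogene copies, so its estimated counts are uncertain. Hnrnpul1, an hnRNP U-like protein, was at 42.5, 13.5, 101.2, 83.0 and 51.2 in aged and 16.5 to 47.8 in young libraries (median 31.4; log2 fold change 0.98 ± 0.55 SE, and 0.11 without those 3).

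The abundant Hnrnph1 had aged values of 833.8, 481.3, 1238, 1382 and 873.1 normalised CPM, next to 426.9 to 925.5 in young libraries (median 607.8). Aged libraries 3 and 4 alone exceeded the young range, and the log2 fold change of 0.59 ± 0.26 (SE) was 0.08 without aged libraries 1, 3 and 4. Hnrnpk was at 465.2, 741.6, 923.4, 809.1 and 663.2 in aged and 404.5 to 764.7 in young libraries (median 655.3), a log2 fold change of 0.25 ± 0.21 (SE), and 0.21 without those 3 libraries. The A/B-class genes Hnrnpa2b1, Hnrnpa3 and Hnrnpab had log2 fold changes of 0.71, 0.72 and 0.72, Hnrnpl, which binds CA repeats, 0.74 and the Hnrnph1 paralog Hnrnph2 0.70. Without aged libraries 1, 3 and 4, the values of Hnrnpa2b1, Hnrnpa3 and Hnrnpab were 0.23, 0.22 and 0.79, and those of Hnrnpl and Hnrnph2 were -0.39 and -0.33. Hnrnpr, Hnrnpf, Hnrnpc, Hnrnpdl, Hnrnpd, Hnrnph3 and Hnrnpu lay between -0.02 and 0.55. Without aged libraries 1, 3 and 4 they lay between -0.84 and 0.41, with Hnrnpc going from 0.19 to -0.84 and Hnrnpr from 0.55 to -0.08.

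At the low end of the hnRNP family, Hnrnpul2 was at 34.6, 12.8, 3.85, 4.17 and 0.0335 normalised CPM in the aged group, next to 10 to 62.7 in the young (median 16.2), with a log2 fold change of -1.03 ± 1.14 (SE) that lay between -2.11 and -0.55 on leaving out single libraries and was -1.79 without aged libraries 1, 3 and 4. Aged libraries 3, 4 and 5 were below every young library. Hnrnpm was at 79.0, 78.7, 48.4, 61.8 and 52.3 in aged libraries, all inside the young range from 26.1 to 160.9 (median 69.1; log2 fold change -0.24 ± 0.44 SE, and -0.21 without aged libraries 1, 3 and 4). Hnrnpll, which controls exon choice of the leukocyte antigen CD45, had 0 counts in aged libraries 1 and 4. It was at 22.1, 74.2 and 49.0 normalised CPM in aged libraries 2, 3 and 5 and between 9.49 and 46.9 in young ones (median 34.2), a log2 fold change of -0.06 ± 1.27 (SE), and 0.21 without aged libraries 1, 3 and 4. A count of 0 allows up to 0.129 CPM at these depths.

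Single libraries decided the sign of the weak members only. On leaving out any 1 library 18 members stayed positive and 3 negative in every fit, and 11 changed sign at least once: Srsf1, Srsf6, Srsf7, Srsf9, Hnrnpc, Hnrnpd, Hnrnpdl, Hnrnph3, Hnrnpll, Hnrnpm and Hnrnpu, all between -0.24 and 0.33 in the fit of all libraries. Aged library 3 held the highest value of 14 members, more than any other library. Aged library 2 held the highest value of none and was above the young median for 9 of 32 members, whereas aged libraries 1, 3, 4 and 5 were above it for 20, 24, 25 and 26. Young libraries themselves ranged from 9 members (young library 7) to 19 (young library 4). Summed over the family, SR genes took 3583 to 7164 CPM of a library in aged and 3938 to 5302 in young libraries, and hnRNP genes 2901 to 6182 and 2949 to 5189, before composition scaling. Both sums were lowest of all libraries in aged library 2 and highest in aged library 3.

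**Figure D5:**
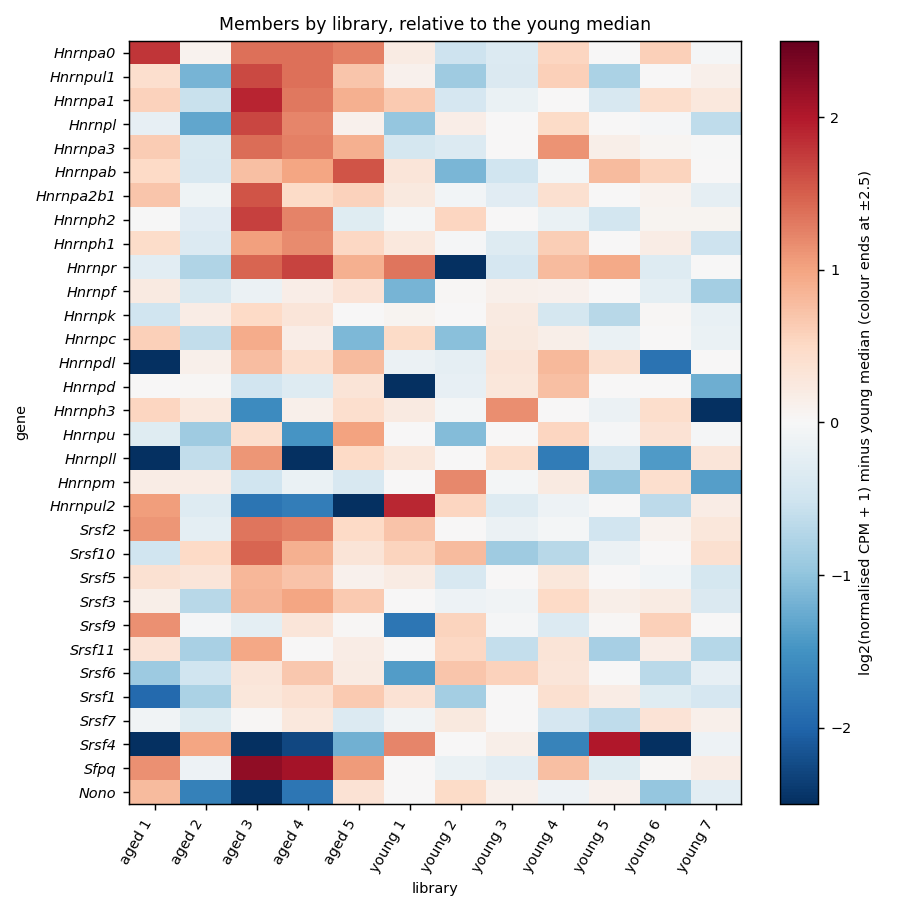
Log2(normalised CPM + 1) of the 32 members (rows, by family and fold change) in the 12 libraries (columns), as the difference from the young median of that gene. Red marks values above and blue below it. Aged libraries 3, 4 and 5 are red for 24, 25 and 26 members, aged library 2 for 9, and Nono is blue where Sfpq is most red.

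The members most like Sfpq over the 12 libraries, by Spearman rho of normalised CPM, were Hnrnpul1 (0.91), Srsf2 (0.85), Hnrnpa0 (0.85), Hnrnpa1 (0.83) and Hnrnpa2b1 (0.81). Over the 9 libraries other than aged 1, 3 and 4 these were 0.83, 0.65, 0.70, 0.68 and 0.60. At the other end Nono was at -0.35, and -0.20 over 9 libraries. The median over the 29 other members of at least 20 CPM was 0.38, beside 0.00 over the 4825 genes of that level. The non-members most like it were Rassf2 (0.93), Dusp6, Skil, Man1a and Rbm12b2 (0.92 each). These are descriptions over 12 shared libraries, and the age difference enters both sides of each of them.

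Other genes of the splicing machinery were read from 9 lists of known components, 165 genes outside the members, of which 163 were in the table and 151 tested. None was called by edgeR at an adjusted p under 0.05. At an unadjusted p under 0.05 there were 6 higher and 1 lower of 151, beside 3.85% and 2.12% of all genes. DESeq2 called 2, both higher, beside 1.27% of all genes. These counts are near the background. The median log2 fold change was 0.12, with 91 positive and 60 negative genes. Without aged libraries 1, 3 and 4 this median was -0.06, the same as that of all genes. SR-related proteins, cofactors with arginine and serine repeats that are not classical SR proteins, had 20 positive and 3 negative genes of 23 (median 0.33, and 0.19 without aged libraries 1, 3 and 4). Tra2b, an SR-like activator of exon inclusion, was at 637.9, 370.9, 1965, 1394 and 1049 normalised CPM in the aged group, next to 320.4 to 643.9 in the young. Its log2 fold change was 1.39 ± 0.32 (SE; edgeR adjusted p = 0.187, DESeq2 adjusted p = 0.00653), and 0.76 without aged libraries 1, 3 and 4. Luc7l2, a U1-associated factor named after its values were seen, was at 513.4 ± 154.6 against 271.0 ± 63.8 (log2 fold change 0.92; edgeR adjusted p = 0.277, DESeq2 adjusted p = 0.0467). Aged library 2 held the lowest aged value of both genes. Without it both passed edgeR's test (adjusted p = 0.00992 for Tra2b and adjusted p = 0.0229 for Luc7l2), as did 0.755% of all genes. As that library was the lowest for both, nothing further is read from these calls. The lowest of the list was Scaf1 (-0.45, and 0.16 without aged libraries 1, 3 and 4).

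Of the snRNP proteins that form the body of the spliceosome, U1 and Sm core genes had 4 positive and 6 negative members of 10 (median -0.04). Among them Snrpb, a Sm ring protein, was at 21.5, 72.9, 38.0, 31.2 and 83.4 normalised CPM in the aged group, next to 61.3 to 178.2 in the young, every aged value below the young median of 99.1. Its log2 fold change was -1.19 ± 0.42 (SE; edgeR adjusted p = 0.5), and the highest of the list was Snrpd2 (0.08, with a sign that turned with library totals alone). U2 and branch point factors had 12 positive and 7 negative genes (median 0.15). They ran from Sf3b4 at -0.97 ± 0.88 to Sugp1 at 1.58 ± 1.6 (SE), and Sugp1 was -0.33 without aged library 1. The tri-snRNP and activation genes had 16 positive and 11 negative (median 0.02), from Eftud2 at -1.23 to the helicase Dhx8 at 2.39. Exon junction complex genes had 5 positive and 4 negative (median 0.10), from Casc3 at -1.84 ± 1.32 to Magoh at 0.42 ± 0.31 (SE). None of these lists held a gene past the threshold.

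The enzymes that phosphorylate SR proteins and the remaining regulators were also not called. The kinase, phosphatase and importer list had 7 positive and 7 negative genes (median 0.02). Clk1, the nuclear SR kinase, was at 1353 ± 187.2 normalised CPM (aged) and 1145 ± 233.9 (young; SD), and its relative Clk4 at 254.5 ± 38.2 against 274.5 ± 49.1. The cytoplasmic SR kinase Srpk1 had a log2 fold change of 0.92, which was -0.82 without aged library 3. Srpk2 was the highest of that list (1.13 ± 0.82 SE) and Clk2 the lowest (-2.08 ± 1.81 SE). The hnRNP proteins under other symbols had 8 positive and 8 negative genes (median -0.01). They include the polypyrimidine tract binder Ptbp1 (-0.12, with either sign on leaving out single libraries, such as 0.22 without young library 6) and Raly (-1.23, the lowest). Tardbp, the RNA-binding protein TDP-43, was at 0.31, and at -0.08 without aged library 3. Paraspeckle genes had 9 positive and 6 negative (median 0.22), from Rbm14 at -2.21 ± 1.59 to Rbm12 at 1.94 ± 1.44 (SE). The paraspeckle RNA Neat1 and the speckle RNA Malat1 were not analysed here. Other regulators of alternative splicing had 12 positive and 8 negative genes (median 0.16). They ran from Rbfox3 at -2.38 ± 1.84 to Celf4 at 3.49 ± 1.65 (SE), both under 11 CPM in either group's mean. The medians of the lists in this paragraph were -0.10, -0.04, 0.13 and -0.42 without aged libraries 1, 3 and 4, in the order given.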

How the data were processed

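SMART-seq2 libraries of mouse brain perivascular macrophages (5 aged, 7 young) were analysed. Per the labels' protocols, cDNA was primed with oligo-dT, amplified and made into libraries with the Nextera XT kit. That chemistry does not mark strand, and the labels mention no molecular identifiers. The authors deposited estimated counts and a normalised value whose unit is unnamed, which the values place as FPKM: it scales with library total and a plausible transcript length (median 2648 bases). Per the submitters' processing notes the tools were RSEM 1.2.12, DESeq2 1.4.5, Bowtie2 2.2.5 and HISAT2 2.0.4, listed without roles, with the build GRCm38 (mm10). No annotation is named in the sources used here. Whole numbers made up 88.2% to 90.6% of the deposited estimated counts in each library, and the rest were rounded. All pairs of libraries differed beyond counting noise (lowest chi-square 274.8 per degree of freedom). Repeated or damaged symbols (24) were replaced through Entrez identifiers (17244 of 17358 matched RefSeq).

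All genes were tested together with edgeR 4.0.16 in R 4.3.3 (quasi-likelihood, legacy=TRUE, robust, TMM, filterByExpr, Benjamini-Hochberg adjusted p under 0.05; 9550 genes tested, biological coefficient of variation 1.33). Standard errors come from the F statistic. The script was tested on simulated data. DESeq2 1.42.0 and limma 3.58.1 were alternatives. Libraries share replicate numbers in the labels, without a stated pairing.

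Members and lists were chosen with earlier results of these data known, which includes the alternative without aged libraries 1, 3 and 4. Given in full are Sfpq, Nono and, in each family, the 3 members with the highest FPKM, the 3 with the highest and the 3 with the lowest log2 fold change, and members whose groups separate. Of other splicing genes, the extremes of each list and genes with known ties to the members are given, except 1 that is not reported here. Counts of 0 are read against a floor of 3 counts (0.098 to 0.129 CPM), which covers counting error only.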

Additional observations from a re-analysis of the deposited data

Results flagged for a closer look

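Each group of 5 or 7 libraries was checked for a library standing far from its neighbours relative to the range of the group. For normally distributed values, chance meets this check in about 1 in 20 groups, and unlogged CPM need not be so distributed. Among 116 groups it was met 16 times, 7 of them in members, each time by the highest value of a group. Nothing is read from that number. Sfpq itself was at 704.6 normalised CPM in young library 4, with the next young library at 471. Hnrnpa3 (242.2, next 121) and, outside the members, Tra2b (643.9, next 432) and Pspc1 (70.5, next 33.4) stood out in the same library. Hnrnpul2 was at 62.7 in young library 1 (next 23.9), where Sf3b4 (153.3) and Clk2 (57.3) also stood out. Srsf9 was at 64.9 in aged library 1 (next 35.9) and Sugp1 there at 57.9. Srsf4 was at 13.6 in aged library 2 (next 2.21), and the single count of Hnrnpa1l2-ps2 gave 0.0337 there. Srsf12 was at 2.39 in young library 2 (next 0.103), where Sugp1 was at 19.6. Srpk1 was at 90.2 in aged library 3, Eftud2 at 12.1 in aged library 4 and Rbm14 at 11.6 in aged library 5.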

How the results depend on the processing

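The number of genes called over the whole table was 1, and 3 with library totals alone or with limma on log2(FPKM + 1) or log2(FPKM + 0.1), 13 without a filter, 5 at a mean CPM of at least 20, 121 with DESeq2 and 38 with legacy=FALSE. It was 0 with the library total as covariate or without aged libraries 1, 3 and 4, and 0 to 75 on leaving out single libraries. Members called were 0, against 1 without a filter, 2 with DESeq2, 1 with legacy=FALSE and 0 to 2 on leaving out single libraries; other splicing genes called were 0, against 1, 2 and 1, and 0 to 2. The members' median log2 fold change lay between 0.25 and 0.46 without single libraries and between -0.0 (library total as covariate) and 0.36 under the other settings; with library totals alone it was 0.19, where that of all genes was -0.13. The exact p for library totals ranged from 0.024 to 0.224 and that for genes detected from 0.264 to 1.0 without single libraries. Deviations of same-numbered libraries from their group means had correlations from -0.028 to 0.097. These had no reference values to be compared with, so they do not settle whether the numbers pair libraries. With the replicate block 0 genes were called, and the log2 fold change was 1.26 for Sfpq and -1.34 for Nono. Sfpq moved by more than its spread only without aged libraries 1, 3 and 4 and with the library total as covariate.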
